A study of Saccharomyces cerevisiae with 24 samples.

Results

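Wild-type yeast grown for 48 h in 200 mM CaCl2 was compared with the same strain before CaCl2 was added, 3 libraries against 3 of the 24 in the series, by the names of their columns in the count table. All 6 libraries were from haploid Saccharomyces cerevisiae in the BY4741 background, of mating type a (MATa), with the alleles his3delta1, ura3delta0, leu2delta0 and lys2delta0. All also carried HYG-TEFp-GFP(Y66F) on chromosome VI in place of positions 181901 to 182001, a hygromycin-resistance and GFP construct. Cultures grew in synthetic medium whose nitrogen came from ammonium chloride. Dilution every 12 h held the treated cultures in the log phase. Untreated cells were taken only before CaCl2, so the effects of CaCl2, of 48 h in culture and of repeated dilution cannot be told apart. The time course was run 3 times per strain, and nothing says whether from separate clones. The p-values therefore measure the spread between libraries of the same group, estimated over all 24 libraries and not the 6 alone. This spread may be technical.

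High external calcium enters yeast cells and is moved into the vacuole and the secretory pathway by the pumps Pmc1 and Pmr1 and the exchanger Vcx1. Raised cytosolic calcium activates calmodulin and calcineurin, a protein phosphatase that lets the transcription factor Crz1 enter the nucleus. Crz1 then raises transcription of genes for ion pumps and cell wall enzymes. Yeast takes up iron by a separate set of proteins, whose genes are switched on by Aft1 and Aft2 when iron-sulfur cluster supply is low. Haploid cells of mating type a express the a-factor genes and the alpha-factor receptor, and the pheromone pathway sets the basal level of mating genes through Ste12.

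The libraries held 21565830 to 21833835 counts at 48 h and 21861297 to 22250806 untreated. CPM are counts scaled to a common library size after TMM scaling (trimmed mean of M-values), and values in a sentence follow replicates 1, 2 and 3. URA3, LEU2 and LYS2 had 0 counts in all 6 libraries, in keeping with the deletions. HIS3, labelled with the allele his3delta1, a partial deletion, kept 678, 763 and 678 counts at 48 h against 952, 1145 and 1203 untreated. CNB1, the regulatory subunit of calcineurin, which WT keeps, had 3320, 1913 and 2187 counts at 48 h against 1221, 996 and 1054 untreated. Replicate 1 at 48 h stood apart from the other 23 libraries in one measure: 533 of 6253 genes tested (8.52%) lay at least 2-fold from both other libraries of its group, 413 above and 120 below. The count was 57 for replicate 2 and 29 for replicate 3 at 48 h, 34 to 98 for the untreated libraries and 8 to 150 for the other 18. Across genes its log2 CPM correlated with replicates 2 and 3 at r = 0.961 and 0.971, against 0.994 between those 2 (6253 genes, libraries of similar depth). Results are therefore given with all 3 libraries and again without replicate 1 at 48 h.

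**Figure D1:**
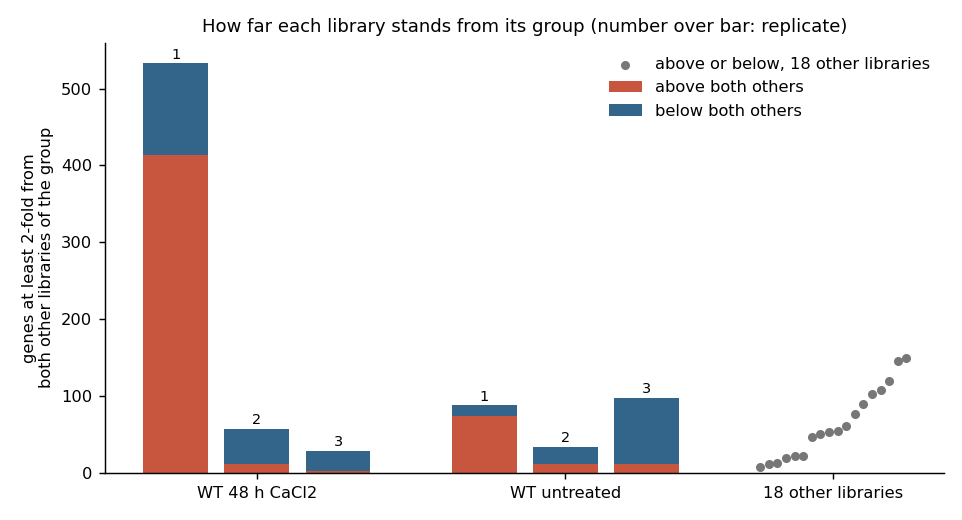
Genes at least 2-fold from both other libraries of the same group, on the y axis as a number of genes, for the WT libraries at 48 h (left), the untreated WT libraries and, as points, the other 18 libraries. Replicate 1 at 48 h reaches 533 genes, 413 of them above the other libraries, while every other library lies at 150 or below.

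After 48 h in CaCl2, 2108 of the 6253 genes tested rose (33.7%) and 1873 fell (30.0%), together 63.7%, at an adjusted p under 0.05 in edgeR's quasi-likelihood F test. Most of these changes were small: 2858 of the 3981 called genes (71.8%) moved by less than 2-fold. A further cut at 2-fold left 556 genes higher (8.89%) and 567 lower (9.07%). At 4-fold 199 genes were higher and 111 lower, at 8-fold 76 and 33, and at 16-fold 31 and 9. The tails therefore leaned upward among all genes tested, although the counts at 2-fold were near equal. Of the 199 genes at least 4-fold higher, 104 were in the reference annotation, 53 of these with a mean of at least 20 CPM in either group. The genes at least 4-fold lower were not split in this way. Over all genes tested the median log2 fold change was 0.06, with the 5th percentile at −1.33 and the 95th at 1.53. Among the 4590 genes with a mean of at least 20 CPM in either group, 1652 rose (36.0%) and 1517 fell (33.1%). With the 2-fold cut 280 of them were higher (6.1%) and 373 lower (8.13%). Of the 5730 genes in the reference annotation 389 (6.79%) were at least 2-fold higher and 501 (8.74%) lower. The near balance at 2-fold thus held over all genes tested but not in these subsets. In 2020 genes (32.3%) all 3 libraries at 48 h lay above all 3 untreated ones, and in 1929 (30.8%) all lay below, 63.2% in all.

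Without replicate 1 at 48 h 1886 genes rose (30.2%) and 1883 fell (30.1%), together 60.3%. Of the genes called with all libraries, 1748 kept a higher and 1660 a lower call, while 360 higher and 213 lower calls ended. Another 138 genes then rose and 223 fell, and no gene was called in the opposite direction. With the 2-fold cut the counts were 446 higher (7.13%) and 577 lower (9.23%). Scaling to total counts instead of TMM set the median of all genes at 0.38 and put 73.8% of the called genes on the higher side, against 2108 of 3981 with TMM, so changes below are relative to the bulk of genes. In RNA from whole cultures, fewer cells with a message and less of it per cell cannot be told apart.

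**Figure D2:**
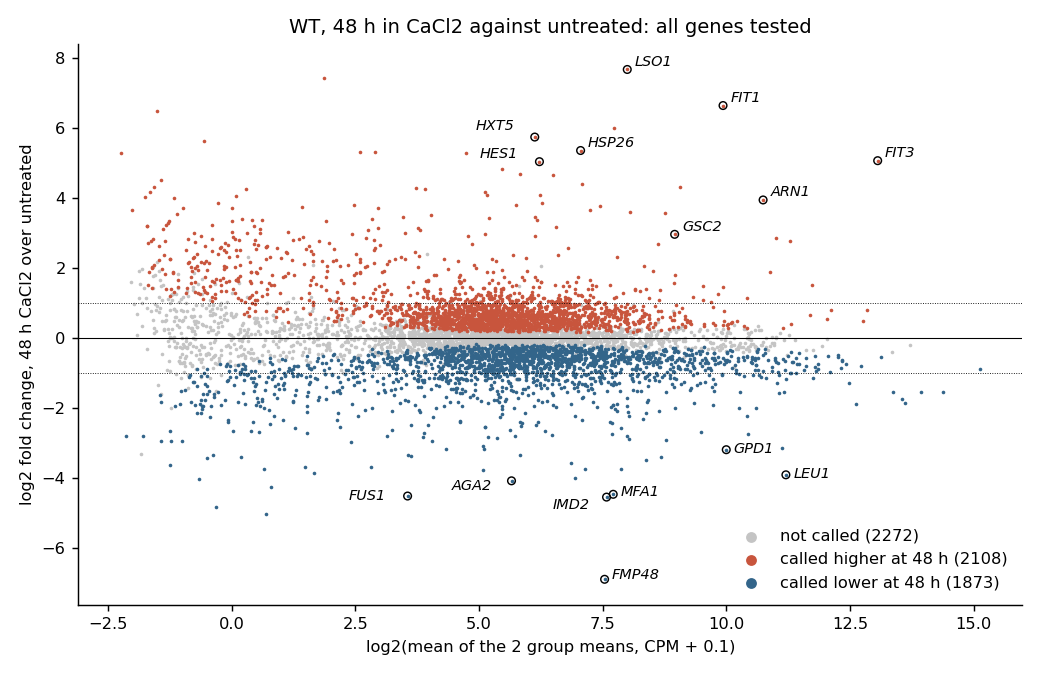
Log2 fold change, 48 h in CaCl2 over untreated (y axis), against log2 of the mean of both group means in CPM plus 0.1 (x axis) for the 6253 genes tested. Red points are the 2108 genes called higher, blue the 1873 called lower and grey the 2272 not called, dotted lines mark 2-fold, and LSO1, FIT1 and FIT3 are among the genes highest on the y axis, and FMP48 is lowest.

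Genes of iron uptake led the rise. Of 29 genes on the iron list, 21 rose and 2 fell, 15 of them by at least 2-fold upward, against 33.7% rising among all genes tested. Their median log2 fold change was 1.23, against 0.06 over all genes. Without replicate 1 at 48 h 15 rose and 4 fell, with a median of 0.70. Summed over the list, transcripts made up 60439, 31150.4 and 37840.0 CPM at 48 h against 8991, 7068 and 8813 CPM untreated. Every library at 48 h was thus above every untreated one, and replicate 1 was highest.

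LSO1 (YJR005C-A, chromosome X, 448477 to 448758, genome build R64), a small protein gene known to be induced by iron deprivation, had 1213, 92.3 and 218 CPM at 48 h against 3.01, 1.97 and 2.47 CPM untreated. All 3 libraries at 48 h were far above the untreated ones but spread over more than 10-fold among themselves. Its log2 fold change was 7.68 ± 1.10 (± SE here and below), edgeR adjusted p = 7.82e-06, and 5.97 without replicate 1 at 48 h. FIT1 (YDR534C, chromosome IV, 1503314 to 1504900), which encodes a cell wall mannoprotein that retains siderophore-bound iron, had 2618, 1299 and 1883 CPM at 48 h against 21.8, 16.8 and 19.2 CPM untreated. Its log2 fold change of 6.65 ± 0.34 (edgeR adjusted p = 2.48e-11) moved little without replicate 1 (6.37). FIT3 (YOR383C, chromosome XV, 1060441 to 1061055), of the same family, had 23075, 11499 and 15075 CPM at 48 h against 543, 361 and 571 CPM untreated, a log2 fold change of 5.07 ± 0.42 (edgeR adjusted p = 1.7e-08). In the deposited TPM values, which are per length, FIT3 ranked 1, 3 and 3 at 48 h among the 6744 genes with such values, against 270, 345 and 267 untreated. FIT2 ranked 6, 8 and 8 at 48 h, against 184, 273 and 194 untreated, and rose by 2.77 ± 0.29 on the log2 scale. FIT3 was thus the most abundant transcript per length in replicate 1 at 48 h.

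The upstream windows of these 3 genes are shown because each holds GCACCC, the core of the Aft1 site, which few other promoters hold. GCACCC was searched on both strands from 250 bases before to 50 bases after the first base of the coding sequence. It was found in 55.2% of the 29 iron list promoters and 9.51% of the promoters of genes at least 2-fold higher, against 4.28% of the 5730 promoters of genes tested. The match is in capitals in bases 250 to 101 before each gene, from RefSeq's R64 assembly, 5′ to 3′ on the gene's strand. LSO1 is on chrX:448859-449008, minus strand, FIT1 on chrIV:1505001-1505150, minus strand and FIT3 on chrXV:1061156-1061305, minus strand.
LSO1: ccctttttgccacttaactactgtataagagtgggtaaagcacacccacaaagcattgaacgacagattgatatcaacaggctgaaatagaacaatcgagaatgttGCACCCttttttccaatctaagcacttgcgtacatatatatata
FIT1: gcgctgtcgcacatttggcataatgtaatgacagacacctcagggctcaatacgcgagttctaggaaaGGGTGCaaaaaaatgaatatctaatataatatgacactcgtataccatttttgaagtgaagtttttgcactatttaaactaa
FIT3: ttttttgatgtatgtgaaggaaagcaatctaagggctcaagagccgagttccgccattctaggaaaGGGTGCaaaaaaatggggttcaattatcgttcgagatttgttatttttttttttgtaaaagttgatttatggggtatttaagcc
FIT1 and FIT3 shared a run of 25 bases around the match, ttctaggaaaGGGTGCaaaaaaatg, where the core lies on the other strand. In LSO1 the match began 144 bases before the gene, in FIT1 182 and in FIT3 184. Such a match, here and below, describes the letters and does not show that a factor binds there.

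Among the siderophore transporters, ARN1 had 5607, 1631 and 2408 CPM at 48 h against 229, 189 and 205 CPM untreated, a log2 fold change of 3.95 ± 0.40 (edgeR adjusted p = 1.49e-07, 3.28 without replicate 1). ARN2, ENB1 and SIT1 also rose, by 2.85 ± 0.32, 1.47 ± 0.22 and 1.27 ± 0.32 on the log2 scale. All 4 of these transporters lay higher in every library at 48 h than in any untreated one. Of the ferric reductases, which release iron from its carriers, FRE5 rose by 3.80 ± 0.34, FRE2 by 3.79 ± 0.35, FRE1 by 1.49 ± 0.23, FRE3 by 1.0 ± 0.22 and FRE6 by 0.35 ± 0.15, while FRE4 had a log2 fold change of −1.61 ± 0.34 and fell. The high-affinity uptake pair differed in size: FTR1, the permease, rose by 1.90 ± 0.25 and FET3, the multicopper oxidase, by 0.66 ± 0.21, and the call of FET3 ended without replicate 1 (edgeR adjusted p = 0.0576). The copper chaperone gene ATX1, needed to load Fet3, rose by 1.23 ± 0.15, with 84.5, 58.3 and 63.4 CPM at 48 h against 27.1, 24.3 and 36.6 CPM untreated.

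Some members rested on replicate 1. HMX1, the heme oxygenase that frees iron from heme, had 379.9, 19.1 and 34.1 CPM at 48 h against 11.1, 8.27 and 10.7 CPM untreated. Replicate 1 was over 10-fold above the other libraries at 48 h, which still lay above all untreated ones. Its log2 fold change was 3.85 ± 0.88 (edgeR adjusted p = 0.000854) with all libraries and 1.41 without replicate 1 (edgeR adjusted p = 0.0499). TIS11, also called CTH2, whose protein binds messages of iron-using enzymes and promotes their decay, had 285, 41.8 and 63.1 CPM at 48 h against 91.8, 51.9 and 92.5 CPM untreated and was not called (log2 fold change 0.73 ± 0.53, edgeR adjusted p = 0.239). Here replicate 1 lay above all untreated libraries, replicate 2 below them and replicate 3 among them. FTH1, a vacuolar iron transporter subunit, was called with all libraries (log2 fold change 1.42 ± 0.37) but not without replicate 1 (0.60, edgeR adjusted p = 0.0593). The vacuolar iron exporter gene SMF3 fell in both fits (log2 fold change −0.96 ± 0.23, and −1.13 without replicate 1). FET4, which encodes a low-affinity iron transporter and stands on the zinc list, had 70.7, 111 and 138 CPM at 48 h against 556, 479 and 546 CPM untreated and fell (log2 fold change −2.31 ± 0.26, edgeR adjusted p = 4.33e-07).

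Genes of mitochondrial respiration, many of whose proteins hold heme or iron-sulfur clusters, fell. Of 39 nuclear genes for respiratory chain and ATP synthase subunits, 1 rose and 32 fell, 21 of them by at least 2-fold, with a median of −1.4 (−1.24 without replicate 1). Among all genes tested 33.7% rose, 30.0% fell and 9.07% were at least 2-fold lower. SDH2, the iron-sulfur subunit of succinate dehydrogenase, had 6.49, 7.12 and 7.21 CPM at 48 h against 61.7, 64.1 and 59.7 CPM untreated. The 2 groups were more than 8-fold apart and each was tight, giving a log2 fold change of −3.16 ± 0.12 (edgeR adjusted p = 5.63e-13). RIP1, the Rieske iron-sulfur protein of complex III, had 4.39, 9.24 and 7.94 CPM at 48 h against 60, 58.5 and 62.5 CPM untreated and a log2 fold change of −3.07 ± 0.23. CYC1, cytochrome c, had 0.311, 1.71 and 1.04 CPM at 48 h against 11.2, 15.1 and 12.5 CPM untreated and fell (log2 fold change −3.68 ± 0.58). CYT1 and NDI1, for cytochrome c1 and the internal NADH dehydrogenase, had log2 fold changes of −2.82 ± 0.29 and −2.81 ± 0.18. ATP1 and ATP2, the catalytic pair of the ATP synthase, fell with log2 fold changes of −0.54 ± 0.10 and −0.74 ± 0.12, and ATP4, ATP14 and COX5B were not called. NDE2, an external NADH dehydrogenase and the member that rose (log2 fold change 3.03 ± 0.88), had 9.06, 0.647 and 1.54 CPM at 48 h against 0.430, 0.414 and 0.536 CPM untreated, was highest in replicate 1 and was not called without it (1.24, edgeR adjusted p = 0.2).

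In the citric acid and glyoxylate cycles 2 of 23 genes rose and 14 fell (median −0.61), against 33.7% and 30.0% of all genes tested. ACO1, the iron-sulfur enzyme aconitase, had 109, 120.4 and 129 CPM at 48 h against 363, 325 and 336 CPM untreated, a log2 fold change of −1.51 ± 0.19 (edgeR adjusted p = 1.64e-06). KGD1, of the 2-oxoglutarate dehydrogenase complex, fell as far (log2 fold change −1.56 ± 0.16) and CIT1, mitochondrial citrate synthase, had −1.4 ± 0.12. Of 22 genes for heme and iron-sulfur cluster assembly, 4 rose and 14 fell, against the same shares of all genes tested. HEM13, whose product needs oxygen for heme synthesis, had 23.7, 88.1 and 79.8 CPM at 48 h against 201, 236 and 186 CPM untreated (log2 fold change −1.70 ± 0.32, edgeR adjusted p = 0.00015), with replicate 1 lowest. GRX5 and YFH1, the monothiol glutaredoxin and frataxin of cluster assembly, had −1.79 ± 0.20 and −1.63 ± 0.23. HEM14 rose (1.13 ± 0.20), but overlaps BUD25 on the opposite strand, and the use of strand in counting is not given. CCP1, mitochondrial cytochrome c peroxidase, which holds heme, had 5.33, 14.1 and 11.3 CPM at 48 h against 104, 103 and 103 CPM untreated (log2 fold change −3.34 ± 0.36). CTT1, the cytosolic catalase, also a heme protein, fell too (log2 fold change −2.94 ± 0.26, −3.16 without replicate 1).

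Mating genes stood at the other end of the scale. All 7 genes specific to mating type a fell, each by at least 2-fold, against 9.07% of all genes tested, with a median of −3.40 (−3.18 without replicate 1). Their summed level was 250.1, 498 and 392 CPM at 48 h against 2795, 3213 and 3046 CPM untreated. MFA1 (YDR461W, chromosome IV, 1385176 to 1385286), for the a-factor precursor, had 28.9, 11.3 and 14.5 CPM at 48 h against 320.5, 414 and 469 CPM untreated. Every library at 48 h lay more than 10-fold below every untreated one, and the log2 fold change was −4.45 ± 0.29 (edgeR adjusted p = 8.48e-10). MFA2, for the second a-factor precursor, had 47.7, 97.4 and 69.2 CPM at 48 h against 672, 768 and 819 CPM untreated (log2 fold change −3.40 ± 0.24). STE2, the alpha-factor receptor, and STE6, the a-factor exporter, fell less (−2.67 ± 0.27 and −1.95 ± 0.19). BAR1 (YIL015W, chromosome IX, 322342 to 324105), a secreted protease that destroys alpha-factor, had 15.6, 25.5 and 18.7 CPM at 48 h against 249, 288 and 247 CPM untreated, a log2 fold change of −3.72 ± 0.32 (edgeR adjusted p = 2.52e-08). AGA2, the adhesion subunit of a-agglutinin, had 6.69, 4.99 and 5.26 CPM at 48 h against 80, 109 and 96.1 CPM untreated, a log2 fold change of −4.07 ± 0.20 (edgeR adjusted p = 1.13e-11). Its anchor AGA1 (YNR044W, chromosome XIV, 703699 to 705876), which stands on the pheromone list, had 12.6, 15.2 and 15.9 CPM at 48 h against 254, 246 and 195 CPM untreated (−3.99 ± 0.19).

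Of 21 pheromone response genes 3 rose and 16 fell, 10 of them by at least 2-fold, with a median of −0.92. Among all genes tested 33.7% rose, 30.0% fell and 9.07% were at least 2-fold lower. FUS1 (YCL027W, chromosome III, 71803 to 73341), needed for cell fusion, had 1.40, 0.832 and 0.680 CPM at 48 h against 20, 26.2 and 20.9 CPM untreated, a log2 fold change of −4.50 ± 0.40 (edgeR adjusted p = 4.5e-08). SST2, which switches off the receptor's G protein, had 15.9, 19.3 and 19.2 CPM at 48 h against 199.8, 233 and 205 CPM untreated (−3.55 ± 0.17). The pathway's own components moved less: STE4, a G protein subunit, rose (0.31 ± 0.09), while GPA1, the kinase gene FUS3 and the transcription factor gene STE12 had −0.42 ± 0.13, −0.92 ± 0.14 and −0.52 ± 0.14 and fell. FAR1, which arrests the cell cycle in response to pheromone, fell by more (−1.44 ± 0.15). FIG1 had 0.0389 to 0.185 CPM at 48 h against 2.64 to 3.21 CPM untreated, and PRM6 had at most 0.0777 CPM at 48 h, so their fold changes rest on few counts. PRM4 and CIK1 were called higher with all libraries and not without replicate 1 (edgeR adjusted p = 0.399 and 0.176).

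TGAAACA, the pheromone response element bound by Ste12, was found on either strand in 57.1% of the 21 pheromone and 71.4% of the 7 mating type a promoters, against 7.35% of all 5730. Among promoters of all genes at least 2-fold lower it was in 7.98%, near the share of all. It is shown in capitals in the same upstream window of 3 genes that fell far, FUS1 on chrIII:71553-71702, plus strand, AGA1 on chrXIV:703449-703598, plus strand and BAR1 on chrIX:322092-322241, plus strand.
FUS1: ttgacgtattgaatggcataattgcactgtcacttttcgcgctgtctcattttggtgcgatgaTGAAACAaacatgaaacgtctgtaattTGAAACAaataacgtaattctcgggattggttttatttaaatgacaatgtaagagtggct
AGA1: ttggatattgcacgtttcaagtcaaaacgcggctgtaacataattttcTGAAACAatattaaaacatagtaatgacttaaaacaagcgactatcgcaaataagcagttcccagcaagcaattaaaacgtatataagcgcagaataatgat
BAR1: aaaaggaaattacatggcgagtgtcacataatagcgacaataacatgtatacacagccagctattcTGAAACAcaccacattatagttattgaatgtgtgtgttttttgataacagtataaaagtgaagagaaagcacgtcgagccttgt
FUS1 held a pair of matches, at 187 and 160 bases before the gene, AGA1 1 at 202 and BAR1 1 at 184.

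Few genes on the Crz1 and calcium lists moved by 2-fold or more. Of 18 Crz1 targets 5 rose and none fell, below the 33.7% that rose among all genes, with a median of 0.37 (0.14 without replicate 1). Summed over the 18, GSC2 among them, levels were 3933, 2997 and 3696 CPM at 48 h against 2222, 2126 and 2109 CPM untreated. GSC2 (YGR032W, chromosome VII, 548264 to 553951), an alternative catalytic subunit of 1,3-beta-glucan synthase, had 1162, 678 and 798 CPM at 48 h against 119, 111 and 106 CPM untreated and was the only target past 2-fold (log2 fold change 2.97 ± 0.31, edgeR adjusted p = 2.5e-07, 2.72 without replicate 1). CRH1, a wall transglycosylase, rose by 0.95 ± 0.15, and CHS1, a chitin synthase, by 0.50 ± 0.14. CMK2, a calmodulin-dependent kinase, had 120.3, 38.9 and 131 CPM at 48 h against 56.6, 43.4 and 53.6 CPM untreated, with replicate 2 below all untreated libraries, and its call ended without replicate 1 (edgeR adjusted p = 0.0704). PMC1, the vacuolar calcium pump, had 126, 77 and 89.2 CPM at 48 h against 83, 69.6 and 78.2 CPM untreated, a log2 fold change of 0.34 ± 0.18 that missed the threshold (edgeR adjusted p = 0.0928). RCN1, a calcineurin regulator, and ENA1, a sodium pump, had 0.43 ± 0.20 and 0.22 ± 0.17, also not called. GAGGCTG, the core of the Crz1 site, was in 16.7% of the promoters of these targets, 2.06% of those of genes at least 2-fold higher and 1.69% of all.

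On the list of calcium and calcineurin genes 4 of 19 rose and 4 fell (median 0.07), against 33.7% and 30.0% of all genes tested. The regulatory and catalytic subunits of calcineurin moved in opposite directions. CNB1 rose, with 129, 88.4 and 99.2 CPM at 48 h against 65.7, 51.5 and 56.5 CPM untreated (log2 fold change 0.87 ± 0.22, edgeR adjusted p = 0.00206). CNA1 had 26.4, 41.4 and 34.4 CPM at 48 h against 65.7, 75.2 and 70.1 CPM untreated and CMP2 36.2, 43.6 and 42.1 CPM at 48 h against 83.2, 83.9 and 80.9 CPM untreated, and both catalytic subunit genes fell (−1.05 ± 0.12, edgeR adjusted p = 4.55e-07, and −1.03 ± 0.12, edgeR adjusted p = 6.83e-07). In these 3 genes no library at 48 h overlapped the untreated ones. CRZ1 and the calmodulin gene CMD1 had 0.07 ± 0.09 and 0.02 ± 0.08, not called. MID1 and YVC1, for a plasma membrane calcium channel subunit and the vacuolar calcium channel, had −0.43 ± 0.10 and −0.38 ± 0.09 and fell.

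In the cell wall GSC2 stood against a fall of structural proteins. Of 21 wall mannoproteins 3 rose and 11 fell, 6 by at least 2-fold. CWP1 had 57.2, 65.8 and 42.5 CPM at 48 h against 588, 632 and 603 CPM untreated (log2 fold change −3.46 ± 0.28, edgeR adjusted p = 1.5e-08). CWP2, its neighbour, had 206, 736 and 429.5 CPM at 48 h against 3896, 3681 and 4446 CPM untreated (−3.13 ± 0.49), and CCW12, among the most abundant wall protein messages, had 3678, 6094 and 6381 CPM at 48 h against 13389, 15812 and 17909 CPM untreated (−1.54 ± 0.25). Per length CCW12 ranked 5, 5 and 6 in TPM at 48 h and 2 in each untreated library. YPS3, a GPI-anchored protease, rose (1.52 ± 0.24). HPF1, a wall glycoprotein gene outside this list, had 2148, 307 and 608 CPM at 48 h against 54.3, 44.7 and 53.4 CPM untreated (4.33 ± 0.55, 3.17 without replicate 1). Among 21 glucan and chitin genes 6 rose and 6 fell, close to the 33.7% and 30.0% of all genes tested, with SKN1 and UTR2 falling (−1.30 ± 0.11 and −1.4 ± 0.34). In the cell wall integrity pathway 4 of 18 rose and 5 fell, neither above those shares: the transcription factor RLM1 rose by 1.15 ± 0.13 and the kinase SLT2 by 0.67 ± 0.21, while the sensor SLG1 and the GTPase RHO1 fell (−0.66 ± 0.09 and −0.67 ± 0.12). In the osmotic list 4 of 17 rose and 8 fell, against 33.7% and 30.0% of all genes tested, and 4 rose and 10 fell without replicate 1. GPD1, glycerol 3-phosphate dehydrogenase, had 306, 157 and 146 CPM at 48 h against 1819.6, 2015 and 1686 CPM untreated (−3.18 ± 0.27). The kinase gene HOG1 fell too (−1.29 ± 0.18).

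Ribosome assembly genes rose together by a small amount. Of 103 ribosome biogenesis genes 81 rose and 3 fell, 13 by at least 2-fold upward, with a median of 0.69. Among all genes tested 33.7% rose, 30.0% fell and 8.89% were at least 2-fold higher. Without replicate 1, 87 of the 103 rose and 1 fell, against 30.2% and 30.1% of all genes tested, with a median of 0.83. The medians by library were 0.25, 0.83 and 0.81 above untreated. The summed level was 21137, 33096 and 32164 CPM at 48 h against 21551, 21957 and 21112 CPM untreated, so replicate 1 lay within the untreated range while replicates 2 and 3 lay above it. NOG2, a GTPase of the large subunit's assembly, had 348, 428 and 452 CPM at 48 h against 154, 163 and 154 CPM untreated (log2 fold change 1.38 ± 0.13, edgeR adjusted p = 9.18e-08), though a small RNA gene lies within it on the same strand. RRP36, of the small subunit's processing, had 55.1, 63.8 and 66.8 CPM at 48 h against 25, 24.5 and 24.7 CPM untreated (1.32 ± 0.13, edgeR adjusted p = 8.71e-08). BUD21 and UTP5, of the same processome, rose by 1.29 ± 0.12 and 1.19 ± 0.12. Of 20 genes for RNA polymerases I and III 12 rose and 2 fell, RPC37 furthest (1.18 ± 0.10). GATGAG, the core of the PAC motif, was in 88.3% of the 103 promoters and 80% of the 20, against 20% of all. Among promoters of genes at least 2-fold higher it was in 24.4%.

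Ribosomal protein genes did not move with them. Of 137 genes, 15 rose and 52 fell, at a median of −0.22, where 33.7% of all genes tested rose and 30.0% fell. This median was 0.08 with scaling to total counts and −0.08 without replicate 1, where 28 rose and 39 fell. Medians by library were −0.56, −0.12 and −0.02, lowest in replicate 1. RPS9A rose, with 235, 173 and 202 CPM at 48 h against 88.6, 96.1 and 98.2 CPM untreated (1.11 ± 0.15), while its paralog RPS9B had −0.23 ± 0.13 and was not called (the difference between them was not tested). RPL5, which has 1 gene, had 1631, 2489 and 2396 CPM at 48 h against 4617, 4677 and 4981 CPM untreated and fell (−1.13 ± 0.15, edgeR adjusted p = 3.68e-06). Counts of near-identical ribosomal protein pairs depend on how reads that match both were treated, which is not given. Of 69 mitochondrial ribosomal protein genes 22 rose and 13 fell, against 33.7% and 30.0% of all genes tested, and 16 rose and 11 fell without replicate 1.

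Glycolytic genes, among the most abundant messages of yeast, fell as a group. Of 26 genes 3 rose and 20 fell, 13 by at least 2-fold, with a median of −1.07 (−1.02 without replicate 1). Their sum was 75406, 107270.0 and 88533 CPM at 48 h against 205107, 188916 and 204984 CPM untreated, without overlap. FBA1, aldolase, had 3897, 7025 and 5391 CPM at 48 h against 19291, 18897 and 20562 CPM untreated (log2 fold change −1.85 ± 0.22, edgeR adjusted p = 8.56e-07). CDC19, pyruvate kinase, fell by 1.72 ± 0.22 on the log2 scale, and ADH1, alcohol dehydrogenase, had −1.53 ± 0.21. PDC1, the main pyruvate decarboxylase, rose instead (0.48 ± 0.13). ALD4, mitochondrial acetaldehyde dehydrogenase, had 138, 33.1 and 33 CPM at 48 h against 402, 419 and 377 CPM untreated (−2.55 ± 0.49, −3.60 without replicate 1). Of 17 hexose transport genes tested 5 rose and 3 fell, neither above the 33.7% and 30.0% of all genes tested, and 4 rose and 6 fell without replicate 1. Among them HXT2 and HXT3 rose (1.52 ± 0.33 and 0.81 ± 0.23), and HXT5 had 348, 28.4 and 34.3 CPM at 48 h against 3.44, 2.12 and 2.09 CPM untreated (5.75 ± 1.04, 3.62 without replicate 1, edgeR adjusted p = 0.000575). Of 17 genes of trehalose and glycogen 1 rose and 9 fell. TPS2, trehalose phosphatase, had 69.5, 47.5 and 44.3 CPM at 48 h against 416, 305 and 349 CPM untreated (−2.73 ± 0.30, edgeR adjusted p = 3.36e-07) and UGP1, which makes UDP-glucose, had −1.94 ± 0.18.

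Amino acid and purine synthesis fell across pathways, and the counts below are to be read against the 30.0% of all genes tested that fell. Of the leucine, isoleucine and valine genes 10 of 13 fell and 1 rose, and LEU1, isopropylmalate isomerase, an iron-sulfur enzyme, had 99.7, 452 and 337 CPM at 48 h against 4456, 4845 and 3944 CPM untreated. All 3 libraries at 48 h were at least 8-fold below untreated, replicate 1 lowest, with a log2 fold change of −3.90 ± 0.43 (edgeR adjusted p = 4.13e-07, −3.48 without replicate 1). BAT1, the mitochondrial branched-chain transaminase, and ILV3, an iron-sulfur dehydratase, had −2.73 ± 0.32 and −1.99 ± 0.30. In the arginine list 8 of 15 fell, ARG1 furthest with 74.1, 49.6 and 63.9 CPM at 48 h against 461, 484 and 430.2 CPM untreated (−2.87 ± 0.37). In the lysine list 6 of 8 fell, among them LYS1 (−2.50 ± 0.29), and in that for histidine and aromatic amino acids 14 of 19, such as HIS4 (−1.89 ± 0.32), an enzyme of histidine synthesis. Of the serine, glycine and one-carbon genes 7 of 14 fell. SER3, for the first step of serine synthesis, had 26, 38.4 and 33.1 CPM at 48 h against 392, 508 and 395 CPM untreated (−3.73 ± 0.36), but overlaps a noncoding RNA gene on its own strand. In methionine and sulfate use 14 of 26 fell, such as MET5, a subunit of sulfite reductase, which holds heme and an iron-sulfur cluster, with 13.4, 31.2 and 23.9 CPM at 48 h against 156, 175 and 132 CPM untreated (−2.76 ± 0.29, edgeR adjusted p = 2.68e-07).

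Of 14 purine genes 10 fell and 1 rose. IMD2, IMP dehydrogenase of guanine nucleotide synthesis, had 2.68, 26.2 and 18.8 CPM at 48 h against 371, 350.1 and 376 CPM untreated, a log2 fold change of −4.53 ± 0.73 (edgeR adjusted p = 2.93e-05, −4.02 without replicate 1). Replicate 1 lay at least 7-fold below the other libraries at 48 h, and these at least 13-fold below untreated. ADE17, a late enzyme of the pathway, fell by 2.80 ± 0.30 on the log2 scale, while its isozyme ADE16 rose (0.80 ± 0.12). TGACTC, the site of Gcn4, was in 8.15% of all promoters and 10.8% of those of genes at least 2-fold lower. By list it was in 64.3% of the 14 serine and glycine promoters, 53.8% of the 13 of the leucine group, 53.3% of the 15 of arginine and 50% of the 14 of purines. In the nitrogen list 4 of 24 rose and 8 fell, against 33.7% and 30.0% of all genes tested, and 3 rose and 11 fell without replicate 1. GDH3, a glutamate dehydrogenase isozyme, had 231, 81 and 112 CPM at 48 h against 9.36, 6.78 and 8.90 CPM untreated (4.08 ± 0.38, edgeR adjusted p = 5.46e-08), against falls of its isozyme GDH1 (−0.94 ± 0.08) and of the glutamate synthase gene GLT1 (−1.43 ± 0.30).

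Of 20 phosphate genes 2 rose and 14 fell, 8 by at least 2-fold, with a median of −0.66. The secreted acid phosphatase PHO5 had 33.9, 51.2 and 46 CPM at 48 h against 192, 215 and 199.6 CPM untreated (log2 fold change −2.21 ± 0.17, edgeR adjusted p = 7.62e-09). The vacuolar phosphatase PHO8 fell alike (−2.07 ± 0.23), and PHO11 and PHO12, near-identical copies, had −2.62 ± 0.40 and −2.33 ± 0.30. PHO84, the main high-affinity phosphate transporter, rose instead, with 3472, 6056 and 5526 CPM at 48 h against 3604, 3412 and 3167 CPM untreated (0.56 ± 0.22, edgeR adjusted p = 0.0341). CACGTG, the core bound by Pho4 and Cbf1, was in 25% of the phosphate and 26.9% of the methionine promoters, against 2.98% of all. Among promoters of genes at least 2-fold lower it was in 3.19%. Of 14 zinc genes 4 rose and 7 fell, against 33.7% and 30.0% of all genes tested. ZRT1, the high-affinity zinc transporter, had 1184, 474 and 679 CPM at 48 h against 227, 212 and 234 CPM untreated (1.80 ± 0.29), while the low-affinity ZRT2 and the regulator ZAP1 had −1.32 ± 0.17 and −0.96 ± 0.23 and fell.

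Among 27 ergosterol genes 11 rose and 7 fell, against 33.7% and 30.0% of all genes tested. Several late enzymes rose, such as ERG3, the C-5 desaturase, with 1857, 1799.7 and 1959 CPM at 48 h against 827, 872 and 847 CPM untreated (1.14 ± 0.13), ERG6 (1.11 ± 0.13) and ERG4 (1.05 ± 0.13), as did the regulator UPC2 (2.37 ± 0.26) and the sterol esterification gene ARE1 (1.4 ± 0.16). ARE1 overlaps an open reading frame on the opposite strand. ERG13, ERG12 and MVD1, of the early mevalonate steps, had −0.85 ± 0.14, −0.74 ± 0.08 and −0.83 ± 0.14 and fell. ERG11, a heme enzyme, had 269, 1171 and 1036 CPM at 48 h against 1482, 1558 and 1333 CPM untreated and was not called (−0.82 ± 0.36, edgeR adjusted p = 0.0512). HES1, an oxysterol-binding protein, had 204, 70.4 and 159 CPM at 48 h against 4.41, 4.81 and 3.91 CPM untreated, a log2 fold change of 5.04 ± 0.61 (edgeR adjusted p = 1.18e-06, 4.71 without replicate 1). Among its relatives SWH1 and OSH6 rose (1.20 ± 0.14 and 0.42 ± 0.15) and KES1 fell (−0.64 ± 0.12), while OSH2 and OSH7, which also fell (−0.27 ± 0.10 and −0.23 ± 0.08), were above 0 under scaling to total counts and in the TPM fits, without a call. In the sphingolipid list 5 of 29 rose and 11 fell, against 33.7% and 30.0% of all genes tested. YSR3, a phosphatase of sphingoid base phosphates, had 309.6, 185 and 284 CPM at 48 h against 11.3, 11 and 14.6 CPM untreated (4.40 ± 0.41), and RTA1, a membrane protein, had 58.3, 9.43 and 17.7 CPM at 48 h against 1.29, 1.09 and 2.09 CPM untreated (4.26 ± 0.54, 3.19 without replicate 1). RSB1, a relative in the same family of membrane proteins, fell (−2.80 ± 0.51), as did both ORM1 and ORM2 (−1.16 ± 0.18 and −1.13 ± 0.17), regulators of sphingolipid synthesis. In phospholipid synthesis 5 of 19 rose and 6 fell, close to the shares of all genes (33.7% and 30.0%), CHO1 and PSD1 furthest (−1.30 ± 0.18 and −1.31 ± 0.20).

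Cell cycle lists moved in part. Of 10 histone genes 8 rose and 2 fell, with summed levels of 6387, 6362 and 8041 CPM at 48 h against 4653, 4783 and 5344 CPM untreated. Copies of a histone gene are near identical in places, so single members are uncertain. Of 27 G1/S and replication genes 14 rose and 7 fell (median 0.37), with RNR1, the large subunit of ribonucleotide reductase, rising (1.51 ± 0.29) and the G1 cyclin CLN2 falling (−1.41 ± 0.23). ACGCGT, the MCB element of these genes, was in 51.9% of their promoters, 4.88% of those of genes at least 2-fold higher and 3.18% of all. Of all genes tested, 33.7% rose and 30.0% fell, and the lists that follow are to be read against these shares. The G2/M list had 4 of 17 up and 3 down, and the daughter list 3 of 15 up and 6 down. Proteasome (10 up and 10 down of 33), vacuolar ATPase (6 and 6 of 19), unfolded protein response (5 and 3 of 16), ion transport (4 and 4 of 17), redox (5 and 11 of 25), pyruvate carrier (1 and 2 of 3) and chaperone genes (5 and 7 of 22) had calls in both directions. Without replicate 1 the counts were 2 up and 13 down for redox genes and 4 up and 12 down for chaperones. TSA2, a peroxiredoxin, rose among the redox genes, with 134, 24.1 and 43.1 CPM at 48 h against 6.61, 5.69 and 6.43 CPM untreated (3.43 ± 0.51, 2.43 without replicate 1).

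**Figure D3:**
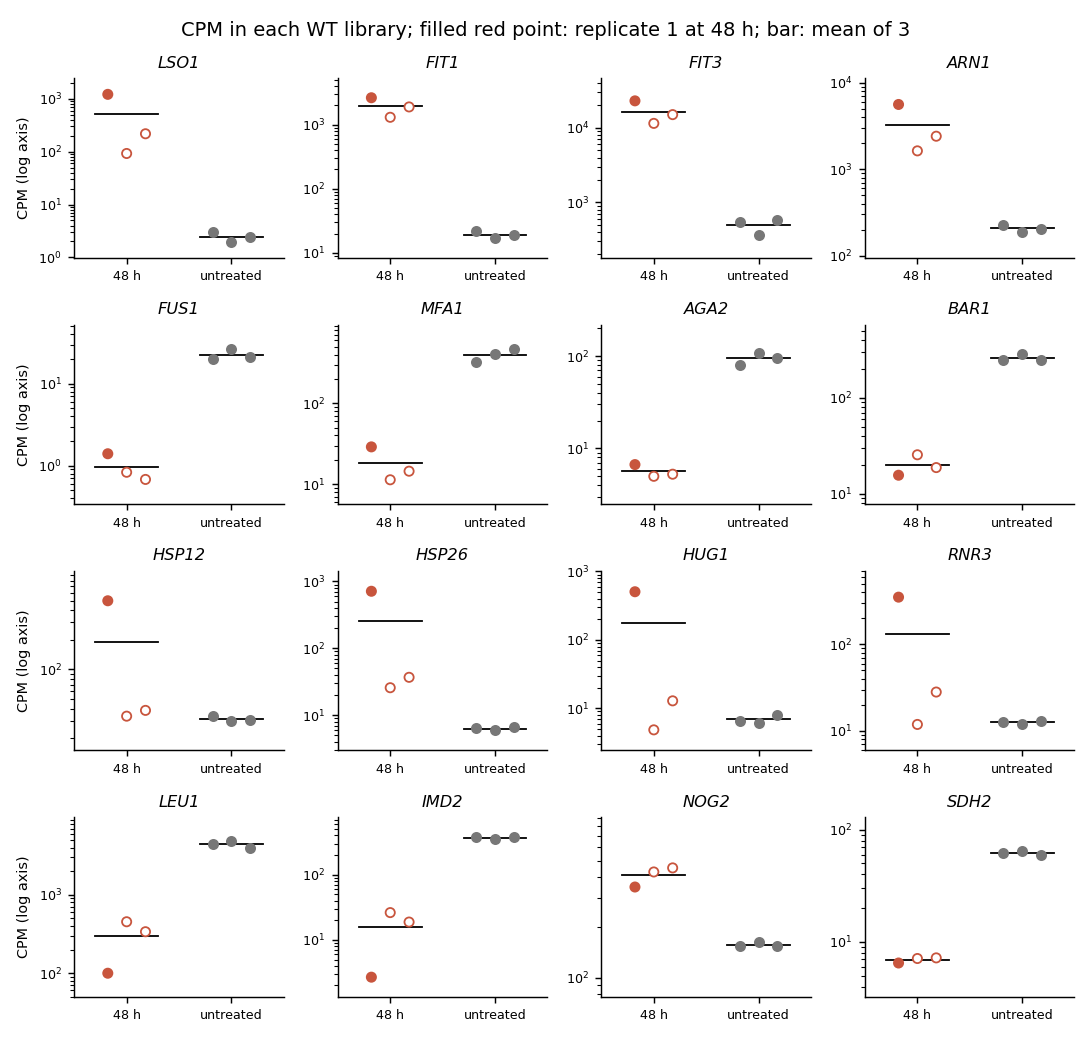
CPM on a log axis in each WT library for 16 genes, 48 h on the left and untreated on the right in every panel, with replicates 1 to 3 from left to right and a bar at the mean. The iron genes of the top row are above and the mating genes of the next row below untreated in all libraries, while HSP12, HUG1 and RNR3 are highest in replicate 1 at 48 h (filled red).

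Stress genes were high in replicate 1 at 48 h and not in replicates 2 and 3. Of 36 general stress genes, 11 rose and 4 fell with all libraries, against 33.7% and 30.0% of all genes tested. In the fit without replicate 1, 2 rose and 13 fell, against 30.2% and 30.1% of all genes tested. The median of the 36 changed sign, being 0.57 with all libraries and −0.47 without replicate 1. Their medians by library were 1.58, −0.53 and −0.40 relative to untreated. Their sum was 5799, 1595 and 1654 CPM at 48 h against 2502, 1924 and 2408 CPM untreated. HSP12, a membrane-associated stress protein, had 498, 33.5 and 38.4 CPM at 48 h against 33.9, 30 and 30.9 CPM untreated, and the log2 fold change of 2.59 ± 0.79 became 0.18 without replicate 1 (edgeR adjusted p = 0.00779 and 0.786). HSP26, a small heat shock protein, had 714, 25.8 and 36.9 CPM at 48 h against 6.35, 5.95 and 6.59 CPM untreated, so replicates 2 and 3 also lay above untreated, with log2 fold changes of 5.36 ± 1.31 and, without replicate 1, 2.32 (edgeR adjusted p = 0.00156 and 0.0578). DDR2 (83.3, 2.91 and 3.63 CPM at 48 h against 2.53, 2.07 and 3.32 CPM untreated) and TMA10 (356, 6.06 and 25.3 CPM at 48 h against 11.8, 7.45 and 16.2 CPM untreated) were far higher in replicate 1 than in the other 5 libraries. TPS1, TPS2, TSL1 and CTT1 fell with and without it. HSP104, HSP42, GLC3 and HXK1 were not called with all libraries and fell without replicate 1, at log2 fold changes of −1.12, −2.56, −1.77 and −1.03.

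AGGGG, the stress response element bound by Msn2 and Msn4, was in 69.4% of the 36 general stress promoters and 22% of all. Among promoters of genes at least 2-fold higher and lower it was in 25.7% and 29.7%. It is printed in capitals, as AGGGG or its reverse complement CCCCT, upstream of 3 genes of the replicate 1 pattern, HSP12 on chrVI:107006-107155, plus strand, DDR2 on chrXV:231856-232005, minus strand and SPS100 on chrVIII:379300-379449, minus strand.
HSP12: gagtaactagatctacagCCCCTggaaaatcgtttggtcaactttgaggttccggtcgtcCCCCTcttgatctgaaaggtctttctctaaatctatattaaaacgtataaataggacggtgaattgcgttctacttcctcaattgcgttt
DDR2: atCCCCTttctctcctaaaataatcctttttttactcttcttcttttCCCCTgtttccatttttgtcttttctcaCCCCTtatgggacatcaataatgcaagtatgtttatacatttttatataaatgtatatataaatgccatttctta
SPS100: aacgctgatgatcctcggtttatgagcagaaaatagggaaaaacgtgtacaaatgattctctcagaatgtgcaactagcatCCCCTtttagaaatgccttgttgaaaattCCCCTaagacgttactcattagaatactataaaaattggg
The windows held 2, 3 and 2 matches.

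Ranked by its gap to the mean of replicates 2 and 3, replicate 1 was furthest above in HUG1, SPS100, TMA10, DDR2, HSP26, PAU5, PAU17, RNR3, HMX1 and HSP12. HUG1, an inhibitor of ribonucleotide reductase induced by DNA damage, had 505, 4.85 and 12.9 CPM at 48 h against 6.45, 6.15 and 8.04 CPM untreated, a gap of 5.98 on the log2 scale. Replicate 2 lay below the untreated libraries here. RNR3, the damage-induced subunit of the same enzyme, had 353, 11.9 and 28.2 CPM at 48 h against 12.7, 12.2 and 13 CPM untreated, a gap of 4.26. SPS100, a spore wall protein gene that overlaps a noncoding gene on the opposite strand, had 69.9, 1.11 and 1.81 CPM at 48 h against 2.69, 2.69 and 2.79 CPM untreated, a gap of 5.53. In 8 of these 10 genes replicate 1 at 48 h was above all 23 other libraries of the series. The pattern was not confined to 48 h: in WT at 72 h, replicate 1 was also above replicates 2 and 3 in each of these genes. HUG1 had 342, 8.26 and 126 CPM at 72 h and HSP26 645, 52.9 and 175 CPM. PAU5, with 146, 8.44 and 34.4 CPM at 72 h, was higher there in replicate 1 than at 48 h. In cnb1Δ cells at 48 h, which lack CNB1, replicate 1 was also above replicates 2 and 3 in all 10, for example 59.4, 3.81 and 3.35 CPM for HUG1 and 62.9, 10.2 and 10.7 CPM for RNR3. Across genes the deviations of the replicate 1 libraries of both strains from their group means correlated at r = 0.569, those of replicate 2 at 0.162 and of replicate 3 at 0.505 (6253 genes that share libraries and scaling). Each group mean includes the library itself, so deviations within a group offset each other and these r values are not independent.

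Replicate 1 was furthest below in IMD2, PRM7, BSC1, ERG11, LEU1, CCC1, FEX2, MYG1, ISA1 and HEM13. Here PRM7 had 284, 1549 and 1183 CPM at 48 h against 520.4, 439 and 451 CPM untreated and BSC1, its neighbour on chromosome IV, 98.8, 465 and 463 CPM at 48 h against 193, 135 and 94.7 CPM untreated. Both were called higher, yet replicate 1 was below the untreated range in PRM7 and within it in BSC1, and without it the log2 fold changes were 1.54 and 1.72, against 1.10 and 1.28. CCC1, the vacuolar iron importer, had 37, 147 and 133 CPM at 48 h against 142, 150.1 and 153 CPM untreated and was not called with or without replicate 1 (edgeR adjusted p = 0.248 and 0.816). ISA1, of iron-sulfur cluster assembly, had 15.6, 60.6 and 50.8 CPM at 48 h against 42.5, 44.7 and 41.1 CPM untreated, below untreated in replicate 1 and above in the others. FEX2, a fluoride exporter, has a near-identical copy, FEX1.

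Over all genes tested, replicate 1 lay above all untreated libraries while replicates 2 and 3 lay below them in 318 genes (5.09%), and the reverse held in 220 (3.52%). In 143 of these genes replicate 1 was also at least 2-fold from both other libraries at 48 h. Where all 3 libraries at 48 h lay on one side, replicate 1 was the furthest from untreated in 1123 of 2020 genes that lay above and in 1153 of 1929 that lay below. Autophagy genes followed the stress pattern: 9 of 36 rose and 3 fell with all libraries, and 1 rose and 15 fell without replicate 1. ATG8, the lipid-bound marker of the autophagosome, was at 0.08 and −0.95. Of all genes tested 33.7% rose and 30.0% fell with all libraries, and 30.2% and 30.1% without replicate 1. In trehalose and glycogen 0 rose and 13 fell without it. Seripauperins, cell wall proteins induced by cold and anaerobic growth, had 15 of 24 genes tested, and 6 rose and 2 fell, or 2 and 3 without replicate 1. PAU5 had 141, 4.07 and 10.5 CPM at 48 h against 0.860, 1.24 and 1.88 CPM untreated, and its call ended without replicate 1 (edgeR adjusted p = 0.158). Members of this family are alike in sequence, so reads may be shared among them. The anaerobic wall protein gene DAN1 had 164, 4.48 and 34.2 CPM at 48 h against 3.98, 2.59 and 5.25 CPM untreated, with log2 fold changes of 4.10 ± 1.25 and, without replicate 1, 2.30 (edgeR adjusted p = 0.104).

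**Figure D4:**
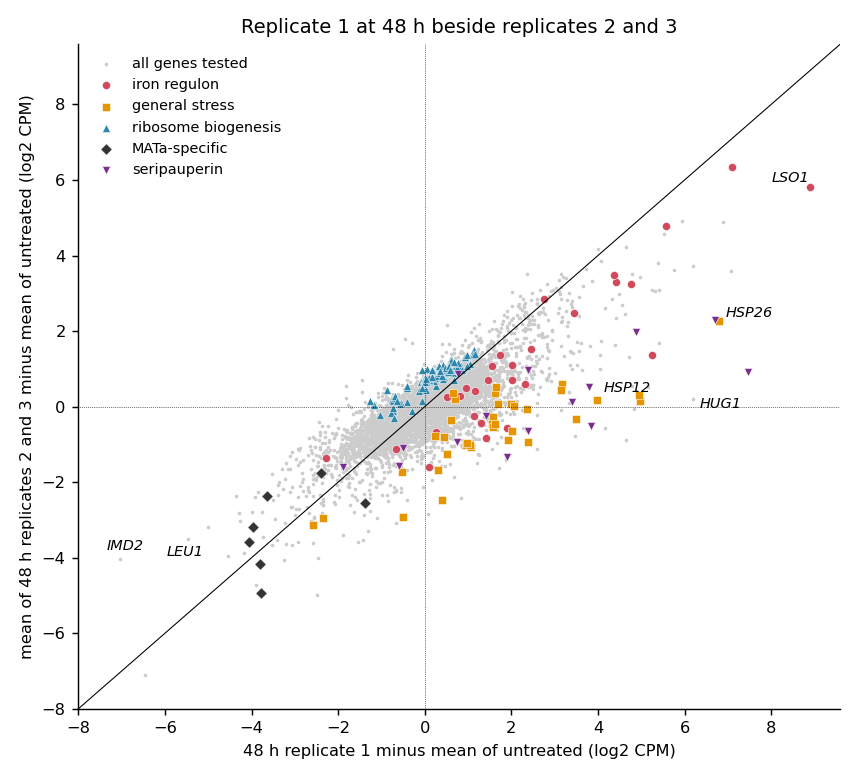
Log2 CPM minus the mean of the untreated libraries, for replicate 1 at 48 h (x axis) and the mean of replicates 2 and 3 (y axis), with the line of equality. Most iron genes (red) are above 0 on both axes with LSO1 furthest right, most stress genes (orange) and seripauperins (purple) lie right of the line, most ribosome biogenesis genes (blue) lie above it and all 7 genes of mating type a (black) are below 0 on both.

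Markers of other cell states were mixed. Of the 4 genes specific to mating type alpha, 2 passed the filter on low counts. MATALPHA1 had 0 counts in all 6 libraries and MF(ALPHA)1 had 7, 4 and 1 counts at 48 h against 3, 5 and 5 untreated. MATALPHA2, outside the list, had 41, 34 and 24 counts at 48 h against 19, 17 and 16 untreated, and its coding sequence is identical to that of the copy HMLALPHA2 at the silent locus, so its reads cannot be placed. STE3, the a-factor receptor of alpha cells, had 24, 2 and 2 counts at 48 h against 91, 124 and 110 untreated. SAG1, alpha-agglutinin, had 25.6, 27.4 and 25.5 CPM at 48 h against 40.5, 41.9 and 36.7 CPM untreated and fell (−0.60 ± 0.09). Summed over the list the level was 26.5, 27.5 and 25.6 CPM at 48 h against 45.4, 48.4 and 42.6 CPM untreated. Of 10 meiosis and sporulation genes 3 rose and 5 fell, against 33.7% and 30.0% of all genes tested. Summed over the 10, levels were 58.9, 53.5 and 49.8 CPM at 48 h against 76.6, 75.8 and 76.3 CPM untreated. IME1, the master regulator of meiosis, had 4.70, 4.58 and 4.04 CPM at 48 h against 14.3, 11.1 and 11.5 CPM untreated and fell (−1.47 ± 0.21). NDT80, a later meiotic transcription factor, rose instead, with 14.8, 7.86 and 9.21 CPM at 48 h against 3.71, 3.78 and 4.45 CPM untreated (1.42 ± 0.21, edgeR adjusted p = 1.17e-05, 1.10 without replicate 1). The recombinase gene DMC1 rose too (1.10 ± 0.23, 0.93 without replicate 1), and the call of REC8, a meiotic cohesin, ended without replicate 1 (1.54 ± 0.51, 0.58 without it, edgeR adjusted p = 0.282). Of 8 stationary phase genes 2 rose with all libraries, against 33.7% of all genes tested, and none was called without replicate 1. The sum of the 8 was 1287, 265 and 299 CPM at 48 h against 357, 373 and 357 CPM untreated, so replicate 1 was highest. The part of such a state in the replicate 1 results was not tested.

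**Figure D5:**
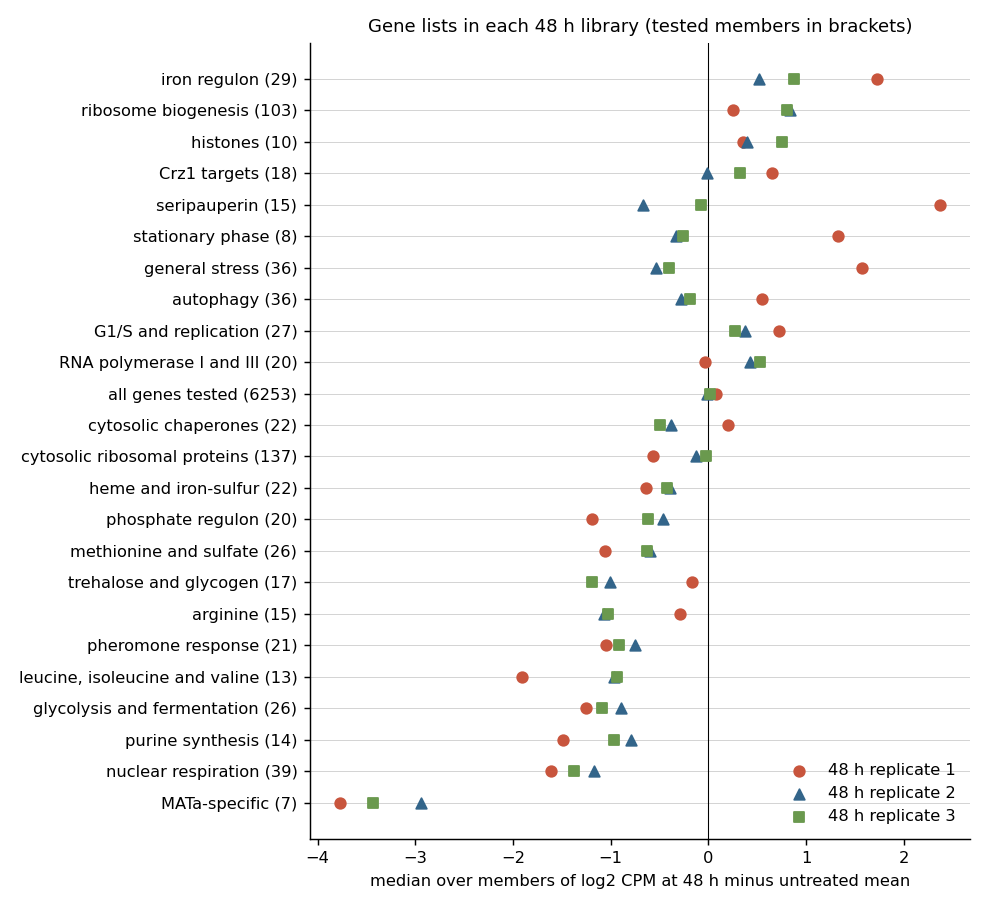
Median over the tested members of 23 gene lists, and over all genes tested, of log2 CPM at 48 h minus the mean of the untreated libraries (x axis), with 1 marker for each library at 48 h. Replicate 1 (red) lies more than 1 log2 unit above replicates 2 and 3 for general stress, stationary phase and seripauperin genes, and the mating type a genes have the lowest median in all 3.

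The remaining genes at the extremes belong to none of these groups. CSS1, a relative of HPF1, had 178, 28.8 and 123 CPM at 48 h against 5.11, 3.10 and 4.61 CPM untreated (4.68 ± 0.62, edgeR adjusted p = 3.16e-06). SET4, a SET domain protein, had 49.5, 5.04 and 20.7 CPM at 48 h against 1.94, 1.29 and 0.590 CPM untreated (4.30 ± 0.91, 3.33 without replicate 1). The gene that fell furthest was FMP48, a putative protein kinase found with mitochondria, with 4.12, 3 and 2.18 CPM at 48 h against 373, 378 and 354 CPM untreated, a log2 fold change of −6.88 ± 0.57 (edgeR adjusted p = 1.93e-08, −7.15 without replicate 1). AIM17 had 6.41, 2.91 and 4.53 CPM at 48 h against 70.7, 49.5 and 68.3 CPM untreated (−3.76 ± 0.39) and NFG1 2.84, 1.76 and 1.81 CPM at 48 h against 23.3, 22.2 and 21.2 CPM untreated (−3.37 ± 0.39). WSC4, a membrane protein of the Wsc sensor family, had 3.77, 1.02 and 1.5 CPM at 48 h against 21.9, 23.9 and 18.5 CPM untreated (−3.33 ± 0.48, −4.08 without replicate 1). In each of these 6 genes the 2 groups did not overlap.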

How the data were processed

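RNA with poly(A) tails was sequenced per the labels' protocols. Per the submitters' processing notes, featureCounts and DESeq2 were used with build R64. Their versions, the aligner, the use of strand and the handling of multi-mapping reads are not stated. The authors deposited raw counts per gene, and TPM values (transcript levels corrected for gene length), whose computation is not given. The table of counts held 7126 genes and that of TPM 6744, each with 24 libraries.

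The deposited counts of all 24 libraries were fitted in edgeR 4.0.16 (R 4.3.3) with 1 mean per group, TMM scaling, filterByExpr and the quasi-likelihood F test, and WT at 48 h was contrasted with WT untreated. Called means a Benjamini-Hochberg adjusted p under 0.05 over 6253 genes, and a second rule asked for 2-fold as well. The standard error is the log2 fold change over the square root of F. The test was tried on simulated counts with 200 changed genes. CPM use TMM library sizes, and log2 CPM a prior count of 2.

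The members and the 51 gene lists were chosen with earlier results of these data known. The text names the 15 genes furthest up and down with a group mean of at least 20 CPM and no overlap between groups, the 10 without replicate 1 at 48 h and the 10 with the largest gaps of that library. It also names up to 6 called members per list and any member of the iron, calcium, Crz1 and mating lists. Another 24 genes were chosen after their values were seen. Alternatives were RLE size factors, total count scaling, filters, 6 libraries, a replicate block, DESeq2 1.42.0, limma 3.58.1 with voom weights, limma on log2 of TPM plus 1 or 0.1, and each library left out. Promoters are from RefSeq's R64 assembly. Mitochondrially encoded genes did not pass the filter, and 0 of 8 were tested.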

Additional observations from a re-analysis of the deposited data

How the results depend on the processing

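No gene called higher or lower was called in the opposite direction in another setting. Of the 170 called genes named in the text, 132 kept their direction and call in every setting that tested them. With the 6 libraries alone 22 lost the call, and without replicate 1 at 48 h 19 did. Calls of lower genes numbered 1082 with total count scaling and 1097, 1087 and 1114 in limma on log2(TPM + 1), log2(TPM + 0.1) and log2(TPM + 1) without a filter, against 1873. At 2-fold or more, genes higher numbered 1112, 302 and 976 with total count scaling, a mean of at least 10 CPM and log2(TPM + 0.1), against 556. Genes lower numbered 310 with total count scaling and 267, 319 and 267 in the same 3 TPM fits, against 567. The 10 CPM setting tests fewer genes, and for the others the cause was not tested. DESeq2 called 2041 higher and 1931 lower, and the 6 libraries alone 1656 and 1386. Leaving out 1 library gave 1857 to 2152 higher and 1632 to 1883 lower.

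Same-numbered libraries of the 2 groups deviated together at r = 0.071, 0.171 and 0.005 across genes, so the numbers were not taken to pair them. With a replicate block 2193 genes rose and 2003 fell, and with the block in the 6 libraries 1498 and 1297.

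OSH2 had log2 fold changes of 0.052 with total count scaling and 0.039, 0.042 and 0.039 in the 3 TPM fits, and OSH7 0.099 with total count scaling and 0.085, 0.088 and 0.085 in those fits. With voom weights SPS100 was −0.57 and ATG8 −0.74. Leaving out 1 library put SPS100 between −0.89 and 3.72 and ATG8 between −0.95 and 0.45, lowest without replicate 1 at 48 h. List medians changed sign without that library in 8 of 50 lists, with total count scaling in 15 and in no setting in 27. Replicate 1 at 48 h had the lowest voom weight of the 24 libraries, 0.102. Groups of 3 libraries were not tested for outliers, and low genes rest on few counts.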

Other observations

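Gene identifiers in the count table that the reference annotation does not hold made up 523 of the genes tested. Of these 167 (31.9%) were called at least 2-fold higher at 48 h and 66 (12.6%) lower, against 389 (6.79%) and 501 (8.74%) of the 5730 genes in the annotation. Their median level was low, 1.03 CPM at 48 h and 0.82 CPM untreated. Without replicate 1 at 48 h 149 were at least 2-fold higher. Among genes with a mean under 20 CPM, 163 of 512 such identifiers (31.8%) were at least 2-fold higher, against 147 of 1357 genes in the annotation (10.8%).

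Genes within 25 kb of a chromosome end made up 4.42% of the 5730 annotated genes tested. They made up 8.74% of the genes at least 2-fold higher (34 of 389), 6.59% of those at least 2-fold lower, 17.3% of those at least 4-fold higher (18 of 104) and 13.6% of those where replicate 1 at 48 h was at least 2-fold above both other libraries (51 of 376). Among genes with a mean of at least 20 CPM, where 2.47% lay this near an end, the last share was 5.10% (8 of 157), and the shares of genes at least 2-fold higher and lower were 6.59% and 3.76%.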
